A study of Mus musculus with 6 samples.

Results

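Eosinophil lineage cells were looked for among 32762 filtered barcodes of c-Kit-enriched mouse bone marrow, and 90 were found (0.275%, 95% Wilson interval 0.224 to 0.338%). A cell was a member when it held at least 2 UMIs (unique molecular identifiers, each standing for 1 captured RNA molecule) of Epx, at least 2 of Prg2 and at least 1 of Prg3, Ear6, Ear1 or Il5ra. The cells were thus chosen by the UMI counts of these 6 genes, and their levels in members are given as a description with no test. Pools 1, 2 and 3 held 28, 28 and 34 members, or 0.251, 0.292 and 0.283% of their cells. A further 3 barcodes met the gene rule and were removed by the cell filters.

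All 9 mice were BALB/c and 10 weeks old when their marrow was taken, and c-Kit+ cells were enriched from each with magnetic beads. The 3 non-tumor-bearing (NTB) mice received no treatment. The 3 vehicle mice carried 4T1 tumors, grown from a mouse mammary carcinoma line, and had DPBS injected intraperitoneally every day for 2 weeks from the time their tumors could be measured. The 3 brequinar (BRQ) mice carried the same tumors and were injected on the same schedule with BRQ at 10 mg/kg, an inhibitor of DHODH, the mitochondrial enzyme of pyrimidine synthesis. NTB mice had no injections, so tumor and injection cannot be told apart between NTB and the other groups. Each pool was 1 capture of 3 mice, 1 per group, told apart by hashtag antibodies against cell surface proteins.

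Eosinophils arise in the marrow from granulocyte progenitors under IL-5, and GATA-1, PU.1 and C/EBP factors direct their development. They store cationic proteins in large granules, among them major basic protein (Prg2), eosinophil peroxidase (Epx) and ribonucleases of the Ear family. In the mouse, most transcription of the granule genes takes place in the marrow precursors, before the cells leave for tissue.

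The genes used for selection lie on 4 chromosomes of GRCm38. The upstream bases of 4 of them, and of Ear2, are shown because these genes define or resemble those that define the cells. Gene coordinates are from the GENCODE M21 annotation. Prg2 (ENSMUSG00000027073, chromosome 2, 84980461 to 84983632, plus strand) and Prg3 (ENSMUSG00000027072, chromosome 2, 84988215 to 84993886, plus strand) are neighbours. Epx (ENSMUSG00000052234) spans 87864000 to 87875536 on chromosome 11 and Il5ra (ENSMUSG00000005364) spans 106710357 to 106749037 on chromosome 6, both on the minus strand. Ear1 (ENSMUSG00000072601), Ear2 (ENSMUSG00000072596) and Ear6 (ENSMUSG00000062148) lie on chromosome 14. No upstream bases are printed for Prg2, or for Ear6, whose window overlaps an annotated transcript. The lines below give the 150 bases before the RefSeq start of the other 5 genes (build GRCm38.p6), read 5′ to 3′ on the strand of the gene. RefSeq and GENCODE starts can differ, and the window of Ear1 lies inside the span GENCODE gives for that gene. Capitals mark GATAA, the core bound by GATA factors, and TTGCNNAA, a pattern of C/EBP sites, each on either strand (GATAA reads TTATC on the other). The patterns do not overlap here.
Epx chr11:87875537-87875686: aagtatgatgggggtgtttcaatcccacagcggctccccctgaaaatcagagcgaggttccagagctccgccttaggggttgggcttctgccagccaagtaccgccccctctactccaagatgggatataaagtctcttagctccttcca
Prg3 chr2:84988065-84988214: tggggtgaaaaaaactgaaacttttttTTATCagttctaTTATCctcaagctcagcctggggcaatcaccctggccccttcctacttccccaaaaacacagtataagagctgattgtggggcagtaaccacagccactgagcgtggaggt
Il5ra chr6:106749038-106749187: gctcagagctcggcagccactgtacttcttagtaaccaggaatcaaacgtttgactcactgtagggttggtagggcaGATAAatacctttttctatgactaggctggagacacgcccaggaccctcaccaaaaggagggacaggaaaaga
Ear1 chr14:43819640-43819789: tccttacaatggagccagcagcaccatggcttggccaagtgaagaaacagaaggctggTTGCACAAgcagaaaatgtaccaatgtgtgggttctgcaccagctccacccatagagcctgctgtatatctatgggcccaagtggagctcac
Ear2 chr14:44102504-44102653: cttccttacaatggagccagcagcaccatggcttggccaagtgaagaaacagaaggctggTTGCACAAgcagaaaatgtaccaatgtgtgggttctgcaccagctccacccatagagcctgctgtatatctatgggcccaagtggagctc

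Prg3 held GATAA at 2 positions and Il5ra at 1, all within the bases shown. Over the full 250 bases before the start, 22.6% of 32851 mouse promoters held GATAA and 9.6% held TTGCNNAA, so these matches are a description of the letters only. Ear1 and Ear2 were alike in 97.6% of aligned bases over those 250, and their longest coding transcripts in 96.1%. Reads of Ear1 and Ear2 can therefore be divided between the genes, or dropped, by the counting, and their separate levels are uncertain. Ear6 was less alike, at 63.0% to Ear1 and 63.5% to Ear2 over the transcripts.

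Members held few UMIs for cells of these libraries. Their median was 3667.5 UMIs (range 824 to 32627) and 1825 genes, against 9478.5 UMIs and 2690.5 genes in the other cells. The mitochondrial share was close, at medians of 2.62% and 3.01%. No member barcode occurred in another pool, although 127 barcodes were shared between pools. The hashtags gave 37 members (41.11%) to 1 mouse, called 13 (14.44%) doublets of 2 hashtags and left 40 (44.44%) negative. In the other cells these classes held 48.75%, 11.09% and 40.16%. Pool 2 had the most negatives, 20 of its 28 members (71.43%, against 52.09% of its other cells), and pool 3 had 8 of the 13 hashtag doublets. Scrublet, which marks cells that resemble a sum of 2 cells, marked 4 members, all in pool 3.

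Each defining gene was far above the rest of the marrow in every pool. Levels here and below are CPM, the UMIs of a gene scaled to 1000000 UMIs summed over the cells of a pool. Prg2 stood at 6037.9, 13001.9 and 9622.9 CPM in the members of pools 1, 2 and 3, and at a mean of 6.17 CPM in all other cells. Epx stood at 1329.0, 2656.8 and 3213.6 CPM against 1.03 CPM. Prg3, a homolog of major basic protein, was at 1015.4, 1167.7 and 979.6 CPM against 0.845. Ear6 reached 826.3, 1238.3 and 462.7 CPM against 0.391, and Ear1 was at 134.4, 117.6 and 108.4 CPM against 0.210. Il5ra, the receptor subunit specific for IL-5, was at 44.80, 31.35 and 32.53 CPM against 0.186. The members of each pool were above the other cells for all 6 genes, while the order of the pools differed from gene to gene.

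**Figure D1:**
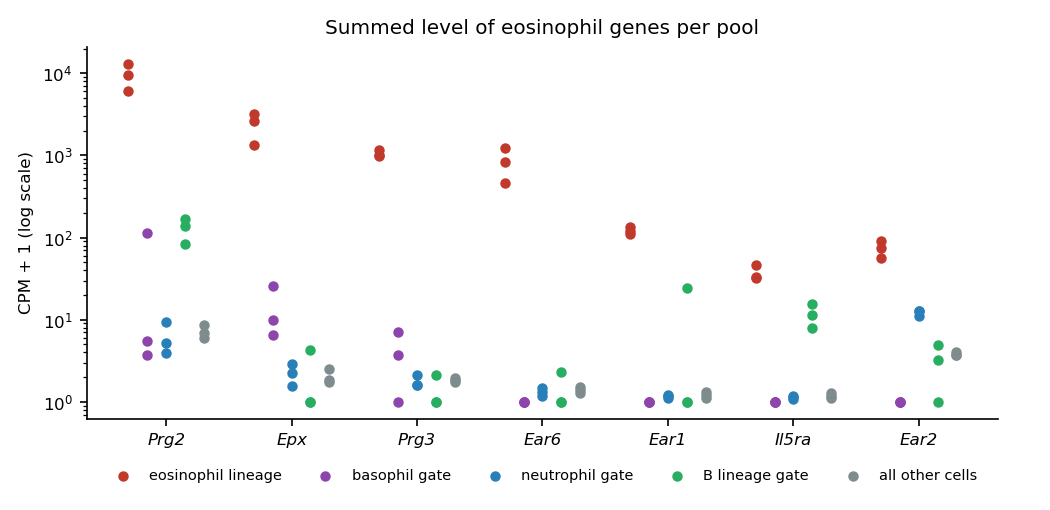
Summed level per pool (CPM + 1, log scale) of the 6 selecting genes and of Ear2 in eosinophil lineage cells and in 4 other sets of cells, each point 1 of the 3 pools. The members of every pool lie above every other set for all 7 genes, with Prg2 between 6037.9 and 13001.9 CPM.

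Members differed in which of the 4 additional genes they carried. Prg3 was detected in 79 members (87.78%), Ear6 in 70 (77.78%), Ear1 in 21 and Il5ra in 18. The number carrying 1, 2, 3 and all 4 of these genes was 22, 42, 22 and 4. Prg3 was the only one of the 4 in 12 members, Ear6 in 7, Ear1 in 3 and Il5ra in 0. Prg2 ran from 3 to 538 UMIs per cell (median 33.00) and Epx from 2 to 184 (median 7.50). At the limit, 13 members held exactly 2 Epx UMIs, with medians of 10.00 Prg2 UMIs and 1736 UMIs in all. Just outside, 10 cells with 1 Epx UMI and the other genes present had medians of 16.50 Prg2 UMIs and 3274.5 UMIs in all. A further 7 cells passed both limits and carried none of the 4 genes. Of all cells with at least 2 Epx UMIs, 82.57% were members, whereas the members made up 37.97% of cells with at least 2 Prg2 UMIs.

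Prg2 was also detected in other cells. After each cell was thinned to 1000 UMIs, leaving out 5 members below that depth, Prg2 was found in 91.76% of 85 members and Epx in 87.06%. In 7940 cells of the neutrophil gate (at least 2 UMIs each of Ltf and Ngp) the shares were 0.768% and 0.101%. The B lineage gate (at least 2 UMIs of Cd79a and 1 of Vpreb1, Vpreb3, Ebf1 or Cd79b) was planned as the cells that should lack the genes. There Prg2 was found in 6.74% of 267 thinned cells and Epx in 0. Before thinning the B lineage shares were 21.27% for Prg2 and 7.09% for Il5ra, at a median depth of 7406 UMIs against 7605 in the neutrophil gate, where Prg2 was found in 4.32% of cells. In the basophil gate (at least 2 UMIs each of Mcpt8 and Prss34 and 1 of Fcer1a, Cd200r3, Cyp11a1 or Ms4a2) Prg2 was found in 0.917% of 109 thinned cells and Epx in 2.75%.

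Receptor genes of eosinophils were unevenly detected in members. Ccr3, the eotaxin receptor of mature eosinophils, had no UMI in any of the 90 members, which allows a share of up to 3.33% of cells with a UMI. Siglecf, a surface lectin of mouse eosinophils, was found in 17 members (18.89%), at 9.96, 62.70 and 32.53 CPM in the 3 pools against 8.75 CPM in the other cells. Csf2rb, the beta chain shared by the IL-5, IL-3 and GM-CSF receptors, stood at 403.2, 172.4 and 177.1 CPM against 83.06. Il1rl1, the IL-33 receptor, was at 19.91, 23.51 and 50.61 CPM against 7.71, and at a mean of 134.0 CPM in the basophil gate. Ccr3 was found in 0.949% of the other cells, so this depth could not show a difference. The 13 receptor genes listed besides Il5ra summed to 780.6 CPM in members and 516.5 in the other cells. The basophil gate stood at 1181.9 CPM and the neutrophil gate at 710.5. Of these genes, 12 had UMIs in members, and 7 of the 12 were above the other cells in every pool. Pirb and Pira2 were below in every pool, and Ccr3 had no UMI in members. Over all 11820 genes with UMIs in members, 25.76% were above and 13.10% below in every pool. These counts describe the selected cells and were not tested.

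Among the granule genes outside the rule, Ear2 was at 74.67, 54.86 and 90.37 CPM against 2.82 CPM, with the reservation on Ear1 and Ear2 given above. Cd63, a granule membrane protein, was at 985.6, 995.3 and 744.7 CPM against 353.3. Ear14 had 11 UMIs in members and Ear10 and Alox15 had 1 each. Rnase2a, Rnase2b and Retnla had none. Of the 9 granule and secreted genes listed outside the rule, 3 were above the other cells in every pool and 2 below (Chil3, and Rnase2a with no UMI in members). Their sum was 1102.7 CPM in members and 638.7 in the other cells. It was 1171.8 CPM in the basophil gate and 1583.1 in the neutrophil gate.

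Most of the listed transcription factor genes were above or below the other cells in every pool. Cebpe, which drives terminal granulocyte maturation, stood at 716.8, 1003.2 and 686.8 CPM against 270.4 in all other cells, 471.1 in the neutrophil gate and 68.65 in the basophil gate. Myb, a regulator of immature blood cells, was at 1742.2, 2022.0 and 1511.0 CPM against 567.5. Gata1 was at 49.78, 54.86 and 54.22 CPM against 23.74, and Trib1, a pseudokinase that acts on C/EBPα, at 29.87, 39.19 and 36.15 CPM against 3.83. Gata2 was at 39.82, 133.2 and 25.30 CPM in members but at 800.2 CPM in the basophil gate. Irf8, which directs monocyte and dendritic cell fates, was lower, at 59.73, 23.51 and 10.84 CPM against 104.3, with 29.89 in the basophil gate and 45.71 in the neutrophil gate. Of 16 factors listed, 8 were above and 7 below the other cells in every pool.

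Progenitor genes were detected in members. Kit, the receptor used for the enrichment, was found in 39 members (43.33%) and in 39.59% of the other cells, at 139.4, 148.9 and 133.8 CPM against 77.24. Cd34 stood at 169.2, 117.6 and 108.4 CPM against 63.76. Mpo, myeloperoxidase, was detected in every member, at 4823.4, 4435.8 and 4276.4 CPM against 3830.4. Elane and Prtn3, serine proteases of neutrophil primary granules, were lower, with log2 ratios of -1.59 and -1.48 (on CPM + 1). Of 12 early progenitor genes, 6 were above the other cells in every pool and 5 below.

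Outside the rule, the 15 genes with the highest ratio to the other cells included genes of mast cells and basophils. They were chosen among 2446 genes at 50 CPM or more in the members of each pool, and ranked by the ratio, so that their being above the other cells in each pool follows largely from the choice. Fcer1a and Ms4a2, subunits of the high-affinity IgE receptor, had log2 ratios of 4.54 and 4.23 (on CPM + 1), and Cpa3, a mast cell carboxypeptidase, 3.86. Slc18a2, a vesicular monoamine transporter, had 3.06. Ikzf2, the transcription factor Helios, had 4.57 at 562.5, 799.4 and 643.5 CPM. Stx3, a syntaxin of granule fusion, had 4.35. The others were Gm8113 at 4.97, Ear2 at 4.28, Ldhc at 4.06, Inpp4b at 3.65, Slc7a8 at 3.4, Grb10 at 3.23, Eml5 at 2.89, Tent5a at 2.82 and Galnt6 at 2.81. Over the basophil gate, 8 of the 15 were also higher in members, while 4 were at least 1 log2 unit lower there.

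**Figure D2:**
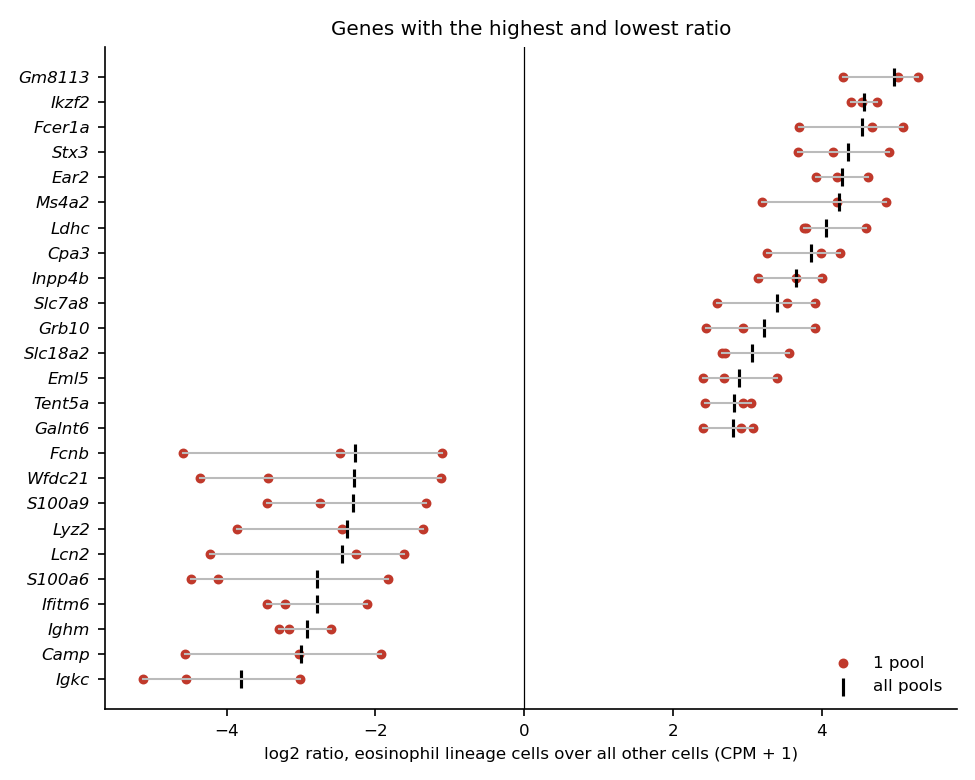
Log2 ratio of the level in eosinophil lineage cells to the level in all other cells (CPM + 1) for the 15 genes with the highest and the 10 with the lowest ratio, each red point 1 pool and each black tick the value over the pools. The genes were chosen by this ratio, which runs from 4.97 for Gm8113 to -3.81 for Igkc, and the points show its spread over the pools.

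Fcer1a, Ms4a2 and Cpa3 were detected in some of the members. Of the 90 members, 44 had no UMI of Fcer1a, Ms4a2 or Cpa3, 25 had 1 of the 3 genes and 21 (23.33%) had 2 or 3, against 0.949% of the other cells. These 21 cells came from every pool (6, 7 and 8) and were deeper, with a median of 8037 UMIs against 2342 in the members with none. Of the selecting genes, Ear6 was at 428.2 CPM in these cells (13 of 21 with a UMI), at 942.8 CPM in the members with 1 of the 3 genes (23 of 25) and at 925.8 CPM in the members with none (34 of 44). In the same order Prg2 was at 12155.0, 5928.6 and 8892.1 CPM. The neutrophil marker sum was 12467 CPM in these cells, 33004 CPM in the members with 1 of the 3 genes and 39578 CPM in the members with none. Mcpt8 and Prss34, basophil proteases that the basophil gate uses, stood at 110.1 and 8.84 CPM in all members, at 48.26 and 26.21 CPM in the other cells and at 8421.4 and 7781.3 CPM in the basophil gate. The 7 basophil markers summed to 1164.9 ± 117.3 CPM in members (SD, n = 3 pools) and to 398.9 ± 98.10 in the other cells. Of the 6 mast cell markers Cpa3 was detected, and Cma1, Tpsb2, Tpsab1, Mcpt4 and Gzmb had no UMI. Only 2 members also met the basophil gate.

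The 10 genes with the lowest ratio included genes of neutrophils and B cells. Igkc and Ighm, immunoglobulin chains, had log2 ratios of -3.81 and -2.92. Camp, Lcn2, Lyz2 and Fcnb, proteins of neutrophil granules, had -3.00, -2.45, -2.38 and -2.27. The alarmin gene S100a9 was at -2.30, and Ifitm6, S100a6 and Wfdc21 were at -2.79, -2.78 and -2.29. In members the sum of 14 neutrophil markers was nevertheless 16625.4, 22461.3 and 37533.5 CPM in the 3 pools, with all 14 genes detected and 13 of them below the other cells in every pool. The same sum was 246430.5 CPM in the neutrophil gate and 29106.5 ± 20948.8 CPM in the basophil gate (SD, n = 3 pools). Single members weighed heavily in it, with 1 cell of pool 2 at 2871 per 10000 UMIs and 1 of pool 3 at 2713. The median per member was 177.6 per 10000 below 2500 UMIs, 120.1 from 2500 to 7500 and 107.3 at 7500 or more. Of the 90 members, 9 met the neutrophil gate. The source of these UMIs was not tested. Markers of the remaining lineages were low. In members the monocyte and dendritic cell markers summed to 180.8 CPM (488.3 in the other cells), erythroid markers to 78.68 (485.0), B lineage markers to 30.00 (55.59), T and NK markers to 260.3 (552.8), megakaryocyte markers to 56.32 (98.56) and macrophage markers to 63.25 (127.5). Cd79a, Pax5, Cd3e and Cd3d had no UMI in members.

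The summed level of genes of protein folding in the endoplasmic reticulum (ER) was higher in members than in the other cells of every pool. The sum of 30 ER chaperone and unfolded protein response genes was 12240.1, 10932.9 and 10194.0 CPM, against 7297.2 ± 160.9 CPM (SD, n = 3 pools) in the other cells. It was 10644.0 ± 680.1 CPM in the basophil gate and 4429.9 ± 733.1 CPM in the neutrophil gate. Of the 30 genes, 17 were above the other cells in every pool and 5 below. Over all genes with UMIs in members the shares were 25.76% above and 13.10% below. Calr, a calcium-binding chaperone, was at 3135.9, 2507.9 and 2382.2 CPM against 1221.6, Hsp90b1 at 1498.3, 1238.3 and 1008.6 against 600.0, and Pdia6 at 876.1, 642.6 and 647.1 against 297.5. Hspa5, the chaperone BiP, differed less, at 592.3, 642.6 and 527.8 CPM against 486.6. Of 20 genes of pyrimidine synthesis, the pathway BRQ acts on, 2 were above the other cells in every pool and 8 below (Uprt, with no UMI in members, among them), with sums of 2320.1 ± 410.4 and 2665.2 ± 80.45 CPM. The 8 leukotriene and prostaglandin genes summed to 326.5 ± 44.42 CPM in members and 443.1 ± 25.33 in the other cells. The sum of the ribosomal protein genes was 240129.2 ± 3788.6 CPM in members and 231055.3 ± 7758.8 CPM in the other cells.

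Cycle genes varied among members. As the mean of the 3 pools, S phase genes stood at 2652.3 ± 262.4 CPM in members and 2681.9 ± 127.5 in the other cells, and G2/M genes at 3995.1 ± 1090.6 and 5290.6 ± 114.5 CPM (SD, n = 3 pools). S phase and G2/M genes together had a median of 59.07 per 10000 UMIs in members (10th to 90th percentile 11.45 to 107.7) and 70.31 in the other cells. Top2a, a mitotic topoisomerase, was found in 41 members and Mki67 in 33. The required 2 Prg2 UMIs set a higher minimum level in a shallow cell than in a deep one. Of the 90 members, 80 held 10 or more, and the cause of the differences with depth below was not tested. In the deepest 24 members, with 7500 UMIs or more, the median Prg2 level was 17.21 per 10000 UMIs, against 110.3 in 34 cells of 2500 to 7500 UMIs and 224.4 in 32 cells below 2500. Over the same bins the median of the G2/M genes was 35.67, 27.78 and 20.60, and that of the ribosomal protein genes 2729.0, 2203.9 and 1632.1.

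**Figure D3:**
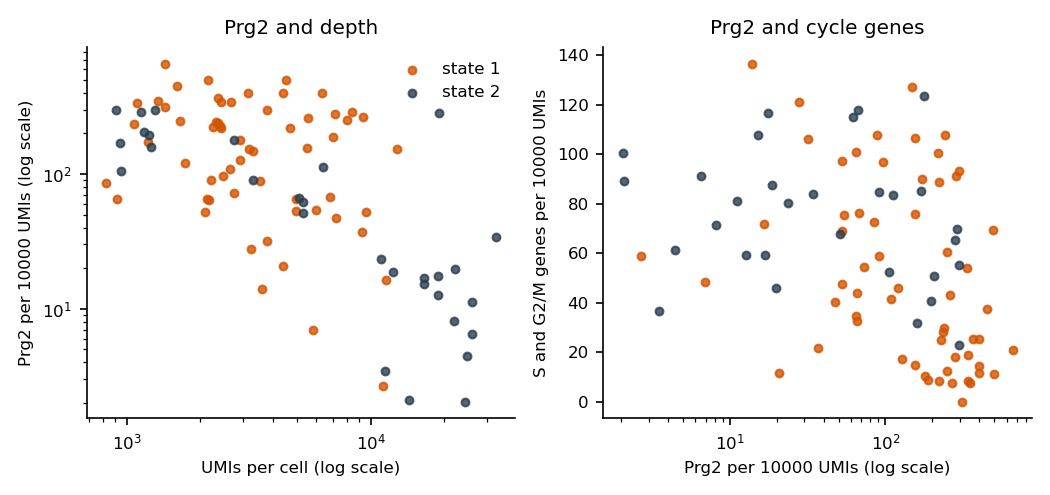
Each point is 1 of the 90 eosinophil lineage cells, coloured by Leiden state: Prg2 per 10000 UMIs against the UMIs of the cell (left, log axes), and S and G2/M phase genes per 10000 UMIs against Prg2 (right, log x axis). Prg2 is a selecting gene, and the required 2 UMIs set a higher minimum Prg2 level in a shallow cell than in a deep one. Of the members, 80 held 10 or more Prg2 UMIs, and the cause of the relation to depth was not tested.

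Clustering of the members without the selecting genes gave 2 states of 60 and 30 cells. State 1 had a median of 3173.5 UMIs and held most of the members of pool 2 (24 of 28). Its cells had Prg2 at 16578.2 CPM, Epx at 3632.2, Ear6 at 1343.6, Gata2 at 95.69 and Ms4a2 at 319.0 CPM. Its leading genes included Dyrk2, Spry2, Glcci1, Asph, Klhl22, I730030J21Rik and 1810026B05Rik. State 2 had a median of 11295 UMIs, Prg2 at 3883.5 CPM, Epx at 1648.3, Ear6 at 324.6, Gata2 at 22.58 and Ms4a2 at 84.67 CPM. Its leading genes were Mef2c, Hist2h2ac, Asprv1, Retnlg, Mgam, Wfdc17, Chil3 and Clec4a2. Several of these rested on few cells: Asprv1 was found in 2 of the 30 cells, and Wfdc17 and Chil3 in 6 each. Asprv1, Mgam and Wfdc17 were higher than in the other members in 1 of 3 pools. The neutrophil marker sum was 36222.0 CPM in state 2 and 14971.4 in state 1, and the G2/M genes stood at 5006.8 and 3026.2 CPM. State 2 held the 4 cells marked by Scrublet, 8 of the 13 hashtag doublets and 6 of the 9 members of the neutrophil gate, and state 1 held 33 of the 40 hashtag-negative members. The states are clusters of few cells that differ in depth, and no cell type name was given to them.

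The comparison between groups asked whether the tumor or BRQ changed how many eosinophil lineage cells the enriched marrow held. Among hashtag singlets, the NTB mice of pools 1, 2 and 3 held 3, 3 and 6 members, which is 0.542, 0.230 and 0.245% of their cells. The vehicle mice held 7, 1 and 2 members, or 0.252, 0.262 and 0.159%. The BRQ mice held 7, 3 and 5 members, or 0.272, 0.129 and 0.213%. The groups overlapped in each comparison, and the Wilson interval of each mouse, which covers counting error only, was wide (0.184 to 1.58% in the NTB mouse of pool 1).

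The mean share was 0.339 ± 0.176% in NTB, 0.224 ± 0.0569% in vehicle and 0.205 ± 0.0719% in BRQ mice (SD, n = 3 mice). Vehicle differed from NTB by -0.115 percentage points (two-sided exact permutation test, p = 0.600), BRQ from vehicle by -0.0191 (exact p = 0.700) and BRQ from NTB by -0.134 (exact p = 0.400), each with an adjusted p of 0.700. With 3 against 3 mice the smallest possible p was 0.1. BRQ was below NTB in 3 of 3 pools, for which the exact sign-flip test within pools gave p = 0.25, its smallest possible value. With hashtag doublets given to the mouse of their strongest hashtag, the groups held 17, 13 and 20 members. With every cell so assigned they held 27, 20 and 43 members, and BRQ was then higher than vehicle by 0.113 and than NTB by 0.0493 percentage points. With 3 mice a group neither test could call a difference in share at 0.05, whatever its size. The direction of the difference for BRQ depended on how hashtags were read.

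**Figure D4:**
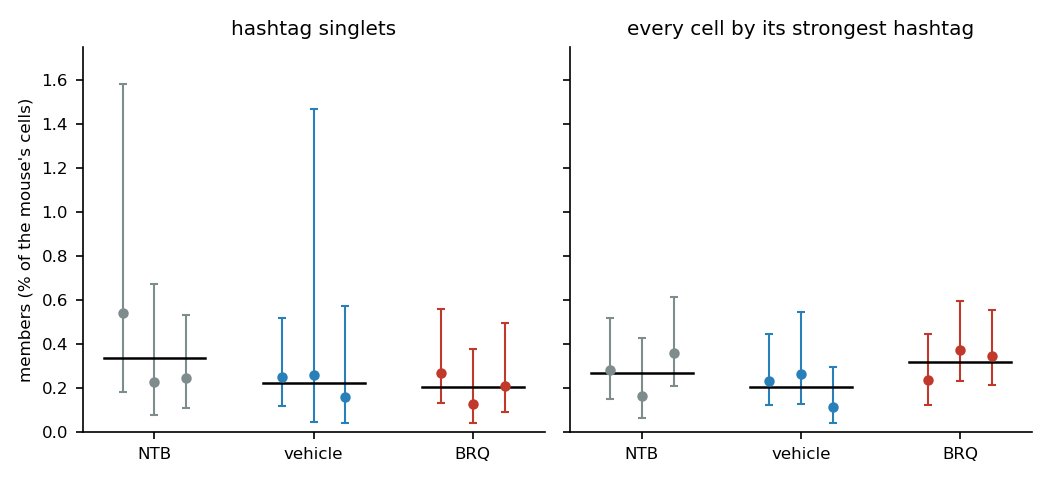
Share of eosinophil lineage cells among the cells of each mouse in percent, with hashtag singlets on the left and every cell given to its strongest hashtag on the right. Points are mice, error bars are 95% Wilson intervals of counting error, and black lines are group means (0.339, 0.224 and 0.205% on the left). The groups overlap in both panels.

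Basophils, another rare granulocyte, were counted in the same mice. The basophil gate held 3, 4 and 5 singlets in the NTB mice of pools 1 to 3, 5, 3 and 0 (vehicle) and 8, 3 and 2 (BRQ). The log2 ratio of eosinophil lineage to basophil gate cells, with 0.5 added to each, was 0.00, -0.36 and 0.24 in the NTB mice of pools 1 to 3. The vehicle values were 0.45, -1.22 and 2.32, and the BRQ values -0.18, 0.00 and 1.14. The value of 2.32 comes from 2 eosinophil lineage cells and no basophils, so its size is set by the added 0.5. The groups overlapped, and the exact permutation p was 0.700 for vehicle against NTB, 0.900 for BRQ against vehicle and 0.700 for BRQ against NTB (each 0.900 adjusted).

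Gene expression within the members was compared over the 9 mice after UMIs were summed per mouse, with 3769 to 108394 UMIs a mouse. At this depth 287 genes could be tested. Between vehicle and NTB, edgeR called 5 genes (1.74% of those tested), between BRQ and NTB 3 (1.05%) and between BRQ and vehicle 0 (0%). All calls were genes of neutrophil granules or phagocytes that fell in the tumor-bearing groups. In the NTB mice of pools 2 and 3, few members held most of the neutrophil marker UMIs, as given below. At unadjusted p under 0.05 there were 10, 13 and 2 genes, and DESeq2 called 2, 4 and 0. With the pool as a term in the fit, edgeR called 4, 3 and 0.

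Camp, the antimicrobial peptide of neutrophil granules, stood at 1408.3, 4457.9 and 2779.7 CPM in the members of NTB mice, 83.03, 0 and 67.89 (vehicle) and 378.8, 498.5 and 317.8 (BRQ). No vehicle or BRQ mouse reached an NTB mouse. Its log2 fold change was -5.44 (SE 0.60, edgeR adjusted p = 9.38e-05) in vehicle and -3.09 (SE 0.47, adjusted p = 0.00328) in BRQ mice against NTB. Ngp, another granule protein, stood at 985.8, 12605.0 and 6937.2 CPM in NTB mice, against 129.2, 1061.3 and 0 (vehicle) and 334.2, 398.8 and 149.5 (BRQ), and the vehicle and NTB mice overlapped. It fell by 5.58 and 4.83 on the log2 scale (edgeR adjusted p = 0.0112 and 0.0106). Lcn2, lipocalin-2, stood at 422.5, 1434.7 and 676.8 CPM in NTB mice, against 46.13, 530.6 and 67.89 (vehicle) and 22.28, 199.4 and 37.38 (BRQ), and fell by 3.70 and 4.20 (adjusted p = 0.0489 and 0.0210). In the NTB mouse of pool 2, 1 of 3 members carried all 246 Ngp UMIs and 1 carried all 28 Lcn2 UMIs.

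S100a8, an alarmin of neutrophils and monocytes, stood at 2534.9, 24851.4 and 10442.1 CPM in NTB mice, against 424.4, 2122.6 and 678.9 (vehicle) and 3408.8, 1395.8 and 1850.5 (BRQ). Vehicle mice were all below NTB mice (log2 fold change -4.23, edgeR adjusted p = 0.0143), while BRQ mice overlapped with them (-2.61, adjusted p = 0.121). Lyz2, lysozyme, stood at 140.8, 1434.7 and 1667.8 CPM in NTB mice, against 36.90, 530.6 and 0 (vehicle) and 222.8, 199.4 and 56.08 (BRQ) (-4.60, adjusted p = 0.0254, and -3.15, adjusted p = 0.0849). For Lyz2, and for Lcn2 between vehicle and NTB, the mice overlapped.

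Levels of these genes in the other cells of the same mice differed between the groups too. Camp ranged from 10771.3 to 16478.6 CPM in the other singlets of NTB mice, from 1753.7 to 3729.6 in vehicle and from 728.8 to 3639.7 in BRQ mice. Summed over the 14 neutrophil markers, the members stood at 18588.9, 79012.1 and 43001.1 CPM in NTB mice, against 9594.6, 40063.7 and 5906.3 (vehicle) and 19561.5, 10368.9 and 13813.6 (BRQ). The median per member was 18181.8, 5648.2 and 20880.8 CPM in NTB mice, 10583.8, 40063.7 (1 cell) and 5486.6 with vehicle, and 15603.5, 11790.3 and 10866.2 with BRQ. These medians overlapped between the groups, and the median lay furthest below the sum in the NTB mice of pools 2 and 3. The other cells ranged from 107303.4 to 151123.3 CPM in NTB, from 69446.7 to 74549.0 in vehicle and from 47224.6 to 70155.0 in BRQ mice. In the B lineage gate the sum overlapped between the groups, from 13107.7 to 38757.7, 1913.6 to 33851.2 and 2019.0 to 18489.8 CPM, and the median per cell lay between 1685.6 and 3554.5 CPM in every mouse. The part of RNA from the other cells in the calls was not tested.

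**Figure D5:**
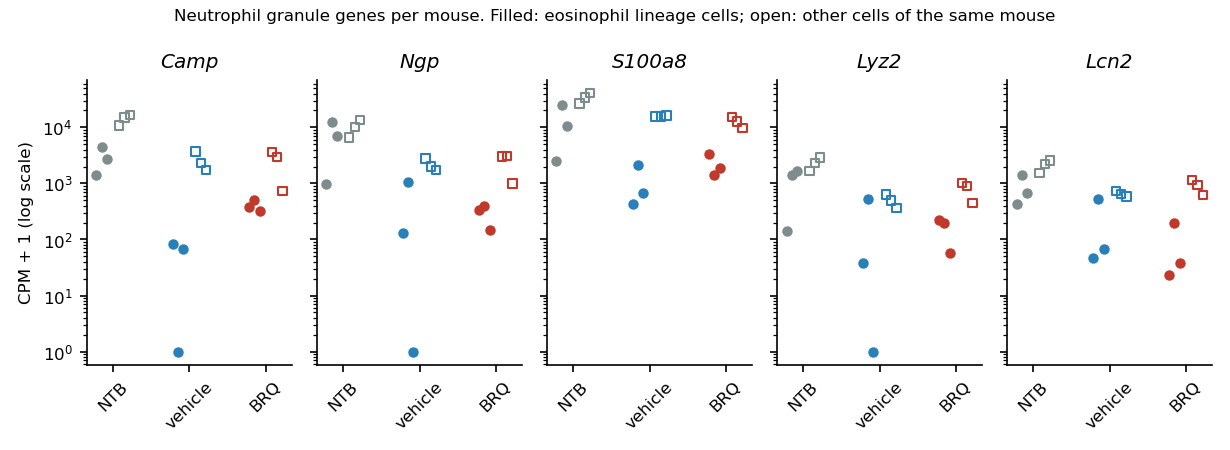
Level of the 5 genes called between vehicle and NTB in each mouse (CPM + 1, log scale), with filled circles for eosinophil lineage cells and open squares for the other singlets of the same mouse; a point at 1 had no UMI. Camp in members lies from 1408.3 to 4457.9 CPM in NTB mice and from 0 to 83.03 in vehicle mice.

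State 2 had the higher neutrophil marker sum. Without it (6, 5 and 4 of the NTB, vehicle and BRQ singlets), 149 genes were tested in place of 287 and 0 were called in any comparison (2, 0 and 4 genes at unadjusted p under 0.05 for vehicle against NTB, BRQ against NTB and BRQ against vehicle; no other tool was run). With fewer cells and genes, and cells removed by their transcripts, this is not a separate test of the calls. With every cell given to its strongest hashtag, edgeR called 7 of 973 genes (0.719%) between vehicle and NTB, 4 of them among the 5 above, and 0 in the other comparisons. Leaving out the vehicle mouse of pool 1 left 1 call between vehicle and NTB and leaving out the NTB mouse of pool 3 left 3, and 8 were called when NTB 1, vehicle 2 or BRQ 2 (the number being the pool) was omitted. Between BRQ and NTB, omitting BRQ 1 or BRQ 3 left 0 calls, omitting vehicle 3 or BRQ 2 gave 6, and omitting NTB 1 or vehicle 2 gave 8.

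The selecting genes are given by mouse as a description. Prg2 stood at 19715.5, 3843.0 and 20376.6 CPM in NTB mice, against 4216.1, 3183.9 and 12152.1 (vehicle) and 4701.0, 28614.2 and 10336.8 (BRQ). Epx stood at 2816.5, 1127.3 and 5728.7 CPM in NTB mice, against 1144.0, 1061.3 and 4548.5 (vehicle) and 1336.8, 2293.1 and 4374.0 (BRQ). For both genes the mice of the 3 groups overlapped. The rule sets a lower limit on both genes, which bounds these levels from below. Il5ra stood at 0 CPM in the members of all 3 NTB mice, at 27.68, 0 and 67.89 in vehicle and at 111.4, 99.70 and 56.08 in BRQ mice. With every cell given to its strongest hashtag it stood at 40.56, 0 and 14.56 CPM in NTB and 93.53, 24.99 and 53.20 in BRQ mice, which overlap, and all members together held 22 Il5ra UMIs.

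None of the 8 tested genes of the ER list and none of the 75 tested ribosomal protein genes were called in any comparison. The ER genes had median log2 fold changes of -0.18 for vehicle against NTB, 0.22 for BRQ against vehicle and 0.11 for BRQ against NTB, beside -0.03, 0.06 and -0.02 over all genes tested. In BRQ against vehicle all 8 were higher, where 55.7% of all genes tested were higher. With every cell given to its strongest hashtag, 16 ER genes were tested, and 2 were higher and 14 lower in BRQ than in vehicle mice. Their median was then -0.21, and 48.7% of all genes tested were higher, so the direction depended on how hashtags were read. Among hashtag singlets the ribosomal protein genes had medians of 0.04, -0.17 and -0.12, and 61 of 75 were lower in BRQ than in vehicle mice. Of the pyrimidine synthesis genes 2 reached the depth for a test. Between BRQ and vehicle the 5 genes with the smallest p were Camp, Gas5, S100a8, Rps27l and Cox6b1, with log2 fold changes of 2.35, -1.09, 1.62, 0.91 and 0.81 and edgeR adjusted p from 0.689 to 0.996.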

How the data were processed

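The authors deposited UMI counts per gene and hashtag for each barcode, as a filtered matrix for every pool (Cell Ranger 6.0.0, mm10, per the labels). Barcodes with 500 to 7500 genes and at most 15% mitochondrial UMIs were kept. The 3 pools held 13750, 11441 and 14297 barcodes with 128035770, 100700982 and 135564079 gene UMIs, and the filters kept 11175, 9593 and 11994. The 500 and 7500 limits follow the study, where the unit can be read as genes or UMIs; UMIs were an alternative. Hashtags were called with HTODemux (Seurat 5.3.0, positive quantile 0.99), and cells marked by Scrublet in scanpy 1.11.5 were retained. Members, gene lists and named genes were chosen with earlier results of these data known. Named genes were the 6 selecting genes, genes of the lists (some named for their role after their values were seen), the 15 highest and 10 lowest by ratio (50 CPM or more in members, 200 CPM or more in other cells, per pool), 8 per state (1 of them is not reported here) and, per comparison, up to 5 called genes in each direction or else the 5 with the smallest p. Members were clustered with Leiden (leidenalg 0.10.2, selecting genes left out, 1000 variable genes, 15 components, 15 neighbours, resolution 0.5, seed 1).

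Counts summed per mouse were compared with edgeR 4.0.16 (TMM, filterByExpr, quasi-likelihood test, Benjamini-Hochberg adjustment, called at adjusted p under 0.05) in 1 fit over 9 mice. The plan asked for at least 5 member singlets per mouse, which 4 mice had and which left too few for a fit, so a fit with at least 1 was reported. DESeq2 1.42.0 was an alternative. Mice of a pool share a capture, which pairs them; their deviations from group means correlated at a median r of 0.141 within pools (9 pairs, lowest -0.328) and -0.025 between pools (18 pairs). In simulated data built on the library sizes for BRQ against NTB (287 genes, 71 changed), every gene had a dispersion of 0.3. There 41.7% of 4-fold and 94.3% of 16-fold changes were called, with 2 false calls. Genes that vary more between mice are not described by these figures. Intervals are 95% Wilson and, like the floor of 3 counts for a 0, cover counting error only. The labels give 3 separate mice a group. R 4.3.3 was used.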

Additional observations from a re-analysis of the deposited data

How the results depend on the processing

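The share of eosinophil lineage cells in vehicle minus NTB mice kept its direction in every alternative that recomputed it (-0.169 to -0.0133 percentage points with 1 mouse left out). BRQ minus vehicle changed direction with every barcode given to its strongest hashtag (0.113), with at least 5 (0.0658) or 1 (0.0386) UMIs of Epx and Prg2, and with the limits read as UMIs (0.163), and ran from -0.0527 to 0.0188 with 1 mouse left out. BRQ minus NTB did so with every barcode (0.0493) and at least 5 UMIs (0.00391), and ran from -0.188 to -0.0324. The log2 ratio to basophils turned with the limits read as UMIs for vehicle minus NTB (-0.342). For BRQ minus vehicle it turned with doublets included (0.160), every barcode (0.200), at least 5 (0.239) or 1 (0.121) UMIs and limits as UMIs (1.02), and for BRQ minus NTB without Scrublet doublets (-0.205). With 1 mouse left out these ratios ran from -0.347 to 1.43, -1.07 to 0.706 and -0.0498 to 0.609. Genes called between vehicle and NTB, 5 as reported, numbered 2 with DESeq2, 1 with doublets included, 2 without Scrublet doublets, 0 at 5 or more UMIs, 1 at 1 or more, 1 with limits as UMIs, 0 without state 2 (chosen after seeing the data, with fewer genes tested) and 1 to 8 with 1 mouse left out. Between BRQ and NTB, 3 as reported, they numbered 0 with doublets included, every barcode, 5 or more UMIs, 1 or more UMI, limits as UMIs or without state 2, and 0 to 8 with 1 mouse left out. BRQ against vehicle had 0 calls in every alternative run. With the pool as a replicate block the calls were 4, 3 and 0 for vehicle against NTB, BRQ against NTB and BRQ against vehicle. No share could be called at 0.05, since the smallest possible p was 0.1 in the exact permutation test and 0.25 in the within-pool sign flips. The number of members was 65 to 105 over 4 alternatives. Fits with at least 5 or 10 member singlets per mouse were not run, since too few mice were left. The cause of these changes was not tested.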
